A study of Homo sapiens with 12 samples.

Results

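The genes described here make nucleotides, the folate-bound single-carbon units used for them, and serine. They were chosen as 31 listed genes of the de novo purine branch, the pyrimidine branch, folate metabolism and serine synthesis. Of these, 30 were measured among the 19777 genes on the arrays: 11 purine, 11 pyrimidine, 5 folate and 3 serine genes. ADSS2, which leads from IMP towards AMP, was not analysed here. The series measured transcripts with 12 Affymetrix arrays of 2 human pancreatic cancer cell lines, L3.6pl and FG, which differ in metastatic potential per the series title. L3.6pl was derived by repeated selection of metastases in mice, which is background knowledge. There were 4 groups of 3 arrays each: L3.6pl in hypoxia, L3.6pl in normoxia, FG in hypoxia and FG in normoxia. Cells were thawed and not passaged, and grew for typically 9 days in DMEM with serum, extra vitamins and non-essential amino acids, a supplement that contains serine and glycine. Hypoxic cultures were held at 1% oxygen for the final 24 h. The sources used here do not say whether replicates 1 to 3 of a group were separate cultures, so p-values measure only the spread between these arrays, which may be technical.

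Purine nucleotides are built stepwise on a ribose phosphate that PRPS1 and PRPS2 activate, and pyrimidine rings are built first and then joined to it. Folate carries single-carbon units into the purine ring and into thymidylate, and serine is the main donor of those units. Dividing cells draw on these pathways to copy DNA and to make RNA, and transcription factors of the MYC and E2F families and ATF4 are known to act on many of their genes.

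All values are log2 of the deposited intensities, so a difference of 1 is a factor of 2. Differences are hypoxia minus normoxia, or L3.6pl minus FG. They are given ± the standard error of a limma model over all 12 arrays, with Benjamini-Hochberg adjusted p over all 19777 genes. A gene was called at an adjusted p below 0.05. With 3 arrays a side, 0.1 is the smallest two-sided p an exact permutation test allows.

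The oxygen labels were checked first. Of 13 known hypoxia targets, 10 rose in L3.6pl hypoxia and 12 rose in FG hypoxia, where 3.89% and 4.23% of all genes rose. Epithelial markers were bright in all groups (7 of 7 with a mean over the array median), and all 3 acinar and all 3 endocrine markers lay under it. Of the endothelial markers 2 of 3 lay under it, and of the measured blood markers 3 of 4. Those over it were PECAM1 (mean 7.35) and HBB (mean 6.55). Fibroblast markers were mixed: 3 of 5 lay under the median, and their summed level was 9.28 to 10.17 in L3.6pl hypoxia, 8.89 to 9.41 in L3.6pl normoxia, 11.77 to 11.97 in FG hypoxia and 11.09 to 12.13 in FG normoxia. The part of other cell types in the results below was not tested. Arrays of a group correlated at 0.974 to 0.996 across genes, which are not independent replicates. There were 3 arrays that stood apart: L3.6pl hypoxia replicate 3, L3.6pl normoxia replicate 1 and FG normoxia replicate 1. They were picked by these same values. Leaving them out can by itself narrow the spread within groups, and it leaves 1 array fewer in each of their groups. The smaller adjusted p of that fit is therefore no independent support. L3.6pl hypoxia replicate 3 correlated with L3.6pl normoxia replicate 3 as highly (0.981) as with its own group. For many of the members, but not all, differences are also given without these 3 arrays.

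The levels of all members on all arrays are shown in the heat map. Most purine and pyrimidine genes were high on normoxia replicates 2 and 3 of both lines, and most were low on the other hypoxia arrays than 2 mixed ones. Those were L3.6pl hypoxia replicate 3 and FG hypoxia replicate 1, where some genes lay above their mean over the arrays and some below. On normoxia replicate 1 most pyrimidine genes were lower and PHGDH and PSAT1 were much higher than on the other normoxia arrays. The mean of the 11 purine genes was 9.40, 9.13 and 9.56 in L3.6pl hypoxia, against 9.68, 9.96 and 9.97 in L3.6pl normoxia. It was 9.65, 9.31 and 9.30 in FG hypoxia, against 9.51, 9.97 and 10.08 in FG normoxia. The 11 pyrimidine genes averaged 9.02, 8.53 and 9.27 in L3.6pl hypoxia, against 9.29, 9.77 and 9.83 in L3.6pl normoxia. In FG their mean was 9.19, 8.71 and 8.81 in hypoxia, against 8.62, 9.51 and 9.71 in normoxia. Both branch means were lower in L3.6pl hypoxia with no overlap, and in FG the hypoxia arrays overlapped the range set by normoxia replicate 1.

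**Figure D1:**
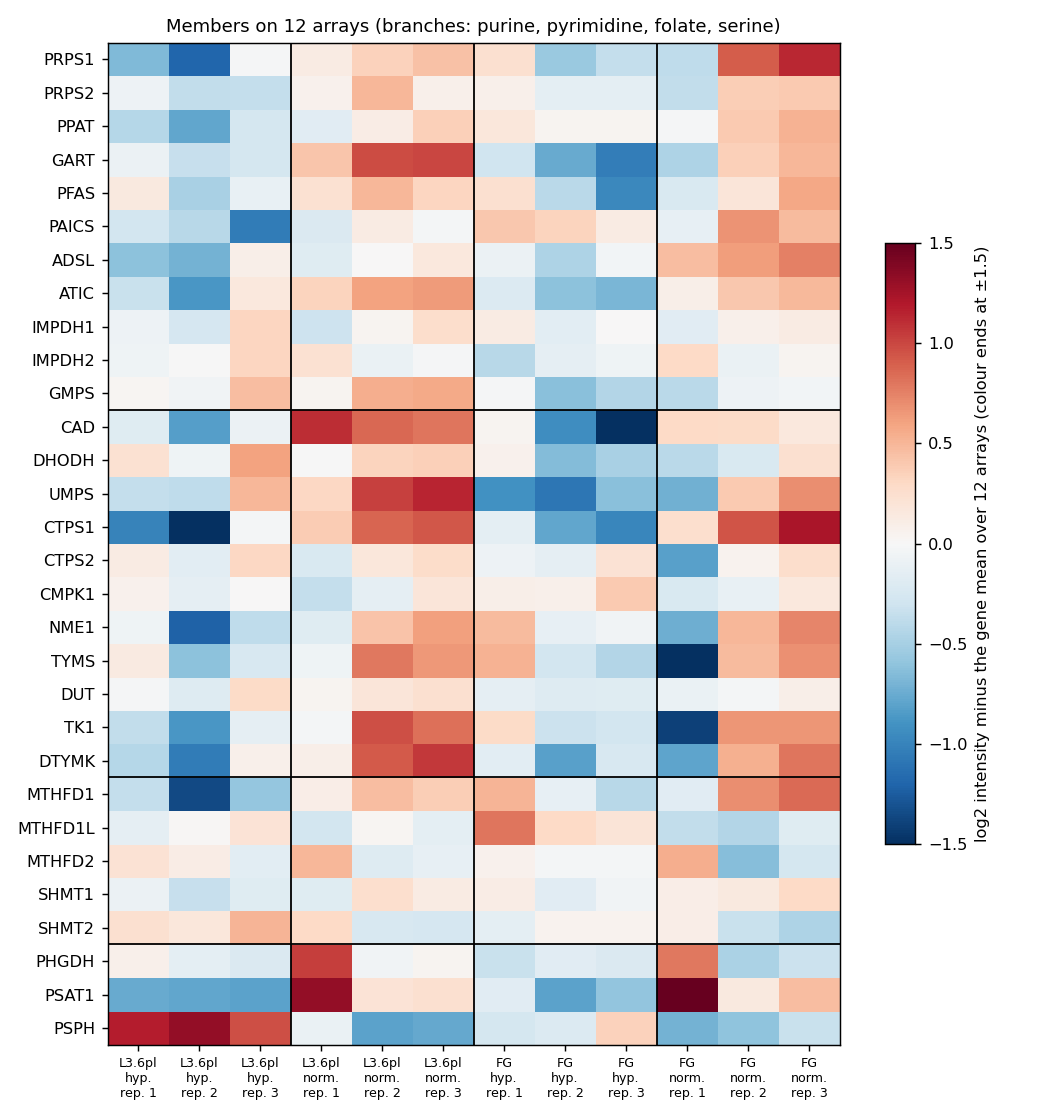
Log2 intensity of each of the 30 members (rows, by branch) on each of the 12 arrays (columns), minus that gene's mean over the arrays; red is above the mean and blue below, and colours end at ±1.5. Purine and pyrimidine rows are mostly red on normoxia replicates 2 and 3, and PSPH is red on the 3 L3.6pl hypoxia arrays (11.98 to 12.33).

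The first question was how hypoxia changed these genes in L3.6pl. In L3.6pl 5 of 30 members fell (CTPS1, PSAT1, CAD, GART and ATIC) and PSPH rose, while 24 were not called. In whole cultures, fewer cells that make a transcript and less of it per cell cannot be told apart. That is 16.7% of members lower against 2.97% of all genes lower, and 3.33% higher against 3.89%. In either direction 6.86% of all genes were called. Negative differences were found for 22 of 30 members, with a median of -0.49, against -0.02 over all genes. The 3 L3.6pl hypoxia arrays lay wholly below the 3 normoxia arrays for 13 members (12.8% of all genes) and wholly above for 1 (11.5%).

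In FG 3 of 30 members fell in hypoxia (CTPS1, ATIC and ADSL) and MTHFD1L rose. The share lower was 10% of members against 6.46% of all genes, the share higher was 3.33% against 4.23%, and 10.7% of all genes were called in either direction. The member shares in FG are near those of all genes. The median difference was -0.22, against -0.03 over all genes, and 23 of 30 members were negative. Non-overlapping lower arrays were found for 6 members (17.1% of all genes) and higher ones for 2 (10.9%).

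Without the 3 arrays that stood apart the counts were larger. In L3.6pl 14 members were then lower and 2 higher, where 13.2% and 7.89% of all genes were (21.1% together). In FG 9 were lower and 3 higher, where 12.5% and 7.06% of all genes were (19.6% together). Members called in that fit but not in the counts above included PPAT, GMPS and NME1 in L3.6pl and GART in FG. No member's hypoxia effect differed between the lines at the adjusted threshold: 0 of 30 were called by limma's interaction test (0.0253% of all genes called), with 2 at an unadjusted p under 0.05. With array weights 2 were called, PSPH and MTHFD1L. With replicate number as a block, which pairs same-numbered arrays of the 2 lines, it was again 0 of 30, while all genes called by that test came to 703, or 3.55%. The plot of hypoxia differences shows each member in both lines.

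The count of 6 in L3.6pl rested on single arrays. It was 1 without L3.6pl hypoxia replicate 1 or 2, L3.6pl normoxia replicate 2 or 3, or FG hypoxia replicate 2. It was 2 without L3.6pl normoxia replicate 1 or FG normoxia replicate 2, 3 without FG normoxia replicate 3, and 9 without FG normoxia replicate 1. The count of 4 in FG was 1 without FG hypoxia replicate 2 or FG normoxia replicate 2 or 3. It was 2 without L3.6pl hypoxia replicate 1, L3.6pl normoxia replicate 2 or 3 or FG hypoxia replicate 3, and 7 without FG normoxia replicate 1.

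**Figure D2:**
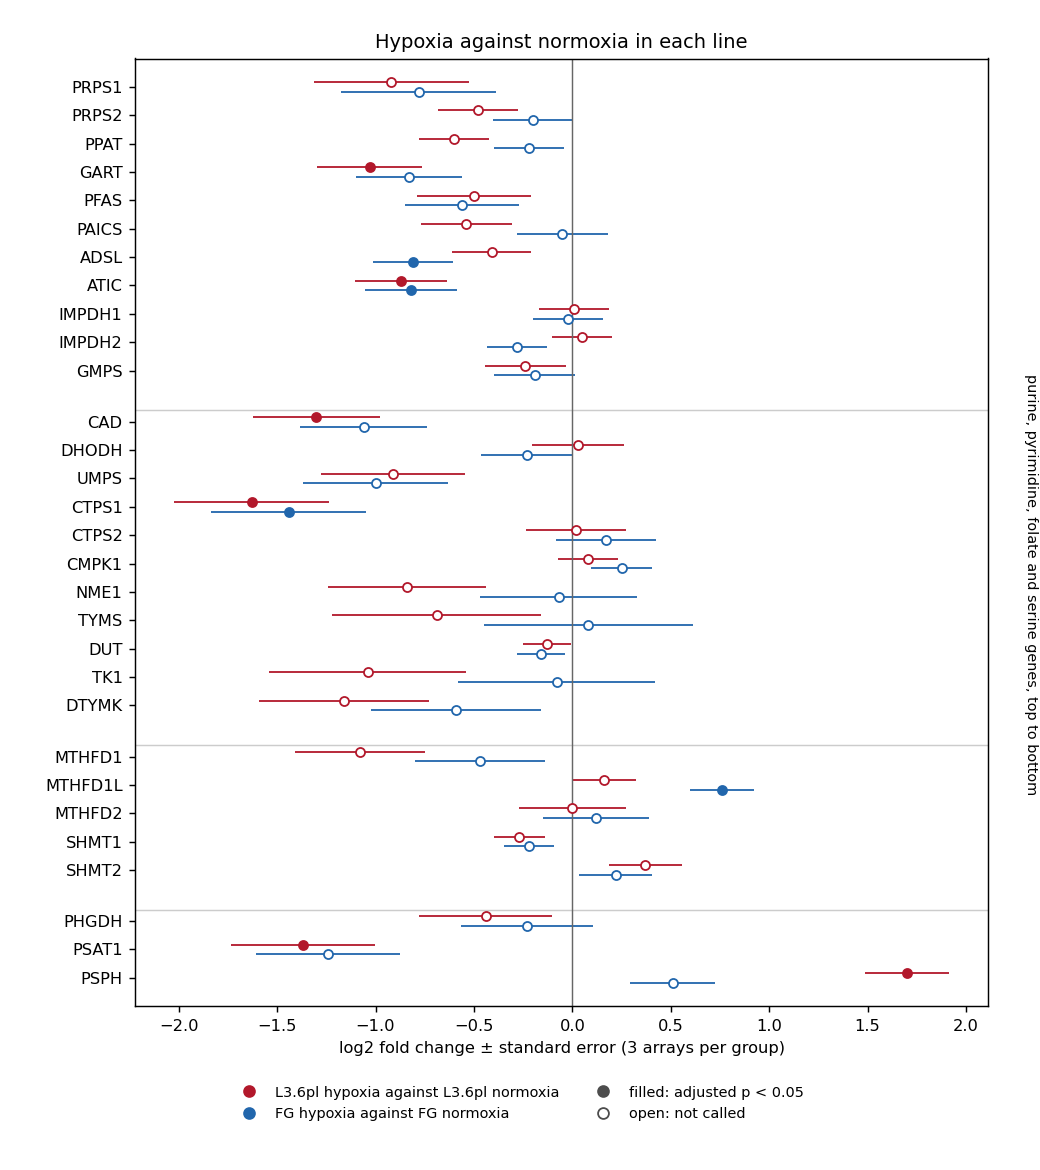
Log2 fold change of each member, hypoxia over normoxia, with its standard error (horizontal axis), in L3.6pl (red, above) and FG (blue, below), 3 arrays per group; filled points were called. CTPS1 and ATIC are filled and left of 0 in both lines, and PSPH is filled only in L3.6pl, at 1.70.

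The purine branch had 2 of 11 genes (18.2%) lower and 0 higher in each line, while 2.97% of all genes were lower in L3.6pl and 6.46% in FG. ATIC, which carries out the closing steps to IMP, was called in both lines. Its levels were 10.06, 9.52 and 10.55 in L3.6pl hypoxia, against 10.73, 11.00 and 11.03 in L3.6pl normoxia. In FG they were 10.19, 9.78 and 9.71 in hypoxia, against 10.48, 10.80 and 10.88 in normoxia. The hypoxia arrays lay below the normoxia arrays in each line, with L3.6pl hypoxia replicate 3 closest to them. ATIC differed by -0.87 ± 0.233 in L3.6pl (adjusted p = 0.0497) and by -0.82 ± 0.233 in FG (adjusted p = 0.0474). These calls sat at the threshold. In L3.6pl the call was lost on leaving out any 1 array except L3.6pl hypoxia replicate 3 and FG normoxia replicate 1 (0.0525 to 0.166). In FG it was lost without FG hypoxia replicate 2 or 3, FG normoxia replicate 2 or 3, any L3.6pl normoxia array or L3.6pl hypoxia replicate 1 (0.057 to 0.157).

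The letters CACGTG are the E-box that MYC with MAX can bind, and binding was not tested here. Of the members called in both lines, ATIC and CTPS1, only ATIC held these letters in its promoter stretch. The stretch below is the 250 bases before its first listed start in RefSeq (GRCh38.p14, chr2:215311809-215312058, plus strand), with CACGTG in capitals, 46 bases before the start.
ATIC: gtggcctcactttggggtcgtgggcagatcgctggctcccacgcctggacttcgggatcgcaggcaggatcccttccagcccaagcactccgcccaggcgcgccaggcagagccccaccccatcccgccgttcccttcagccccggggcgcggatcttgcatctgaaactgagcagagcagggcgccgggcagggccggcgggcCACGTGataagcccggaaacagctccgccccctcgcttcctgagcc

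Of the 31 listed genes 27 had an entry in the promoter table, and 5 of these (18.5%) held CACGTG, against 6.49% of 27305 genes' stretches. The windows around it, with up to 20 bases on either side and CACGTG in capitals, are shown so that the flanks can be compared. The positions are chr4:56435772-56435817 (minus strand, PPAT), chr2:215311993-215312038 (plus, ATIC), chr16:72008565-72008610 (plus, DHODH), chr14:64388318-64388352 (plus, MTHFD1) and chr6:150866312-150866357 (plus, MTHFD1L). ATIC was picked by its calls in these data, and the other 4 windows were chosen after the values were seen.
PPAT: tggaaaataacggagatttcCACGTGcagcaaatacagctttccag
ATIC: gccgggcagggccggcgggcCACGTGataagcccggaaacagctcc
DHODH: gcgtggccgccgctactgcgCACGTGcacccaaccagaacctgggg
MTHFD1: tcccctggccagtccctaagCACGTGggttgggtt
MTHFD1L: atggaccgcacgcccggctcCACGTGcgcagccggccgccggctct

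The hypoxia differences of these 5 genes ran from -1.08 to 0.76. In L3.6pl and FG the differences were -0.60 and -0.22 for PPAT, -0.87 and -0.82 for ATIC, 0.03 and -0.23 for DHODH, -1.08 and -0.47 for MTHFD1, and 0.16 and 0.76 for MTHFD1L. Only those of ATIC and that of MTHFD1L in FG were called. Other motifs were searched on both strands. ACGTG, the core of the hypoxia response element, lies inside CACGTG on both strands and was found in 10 of 27 stretches (37%, against 18.7% of all). CCAAT was found in 12 (44.4%, against 33%) and TGATGNAA, a form of the ATF4 element, in 1 (3.7%, against 3.19%). The E2F forms TTTCGCGC and TTTGGCGC were found in 0 of 27, against 0.469% and 0.553% of all stretches.

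GART, whose protein has 3 activities early in the purine branch, fell in L3.6pl. It had 9.01, 8.75 and 8.84 in hypoxia, against 9.52, 10.08 and 10.10 in normoxia. No arrays overlapped, and the difference was -1.03 ± 0.267, or 2.04-fold lower (adjusted p = 0.0439). The call was lost without FG hypoxia replicate 2, FG normoxia replicate 2, L3.6pl normoxia replicate 2 or 3 or any L3.6pl hypoxia array (0.059 to 0.165). It was also lost with the mean of its 9 probe sets (adjusted p = 0.261). In FG the same gene had 8.80, 8.35 and 8.06 in hypoxia, against 8.64, 9.46 and 9.60 in normoxia. There hypoxia replicate 1 lay above normoxia replicate 1, and the difference of -0.83 ± 0.267 was not called (adjusted p = 0.0753).

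ADSL, which acts both in the shared route and on the way to AMP, fell in FG. Its levels were 11.03, 10.65 and 11.07 in FG hypoxia, against 11.57, 11.74 and 11.87 in FG normoxia. All 3 hypoxia arrays were below, and the difference was -0.81 ± 0.202 (adjusted p = 0.0278). The call was lost without FG hypoxia replicate 1 or 2 or FG normoxia replicate 2 or 3 (0.0564 to 0.119). In L3.6pl it had 10.50, 10.40 and 11.20 in hypoxia, against 10.93, 11.12 and 11.27 in normoxia, and the difference of -0.41 ± 0.202 was not called (adjusted p = 0.28). It was -0.75 in L3.6pl without the 3 arrays that stood apart (adjusted p = 0.00797).

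The other purine genes were not called in either line with the probe set used. PPAT, the committing step, differed by -0.60 ± 0.178 in L3.6pl (adjusted p = 0.0752) and by -0.22 ± 0.178 in FG (adjusted p = 0.538). PRPS1 differed by -0.92 ± 0.393 in L3.6pl and -0.78 ± 0.393 in FG, and without the 3 arrays that stood apart by -1.32 and -1.25 (adjusted p = 0.00669 and 0.00596). PFAS and PAICS lie between PPAT and ATIC in the route. PFAS differed by -0.50 ± 0.291 in L3.6pl and -0.56 ± 0.291 in FG. The values for PAICS were -0.54 ± 0.231 and -0.05 ± 0.231. The genes on the way to GMP are IMPDH1, IMPDH2 and GMPS. The differences for IMPDH1 were 0.01 in L3.6pl (95% interval -0.39 to 0.40) and -0.02 in FG (-0.42 to 0.37), and for IMPDH2 0.05 (-0.28 to 0.38) and -0.28 (-0.61 to 0.06). GMPS differed by -0.24 and -0.19 with the probe set used. Its other 2 probe sets, both dimmer, differed by -1.39 and -0.49 in L3.6pl and by -1.09 and -0.32 in FG. With the mean of its 3 probe sets GMPS was called lower in both lines, at -0.71 in L3.6pl and -0.53 in FG (adjusted p = 0.0206 and 0.0491).

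The pyrimidine branch had 2 of 11 genes (18.2%) lower in L3.6pl, where 2.97% of all genes were, and 1 of 11 (9.09%) lower in FG, a share near the 6.46% of all genes. The genes called, CTPS1 and CAD, act on the way to UMP and CTP. CTPS1, which turns UTP into CTP, fell in both lines. Its levels were 6.05, 5.38 and 7.02 in L3.6pl hypoxia, against 7.44, 7.93 and 7.99 in L3.6pl normoxia. In FG they were 6.91, 6.27 and 6.08 in hypoxia, against 7.31, 8.0 and 8.28 in normoxia. Hypoxia arrays lay below normoxia arrays in each line. The difference was -1.63 ± 0.394 in L3.6pl, 3.10-fold lower (adjusted p = 0.0323), and -1.44 ± 0.394 in FG, 2.72-fold lower (adjusted p = 0.0406). Leaving out the 3 arrays that stood apart gave -2.24 in L3.6pl (adjusted p = 0.000989) and -1.72 in FG (adjusted p = 0.00211). Single arrays ended the calls. In L3.6pl these were L3.6pl hypoxia replicates 1 and 2, all 3 L3.6pl normoxia arrays, FG hypoxia replicate 2 and FG normoxia replicate 2 (0.0501 to 0.122). In FG they were FG hypoxia replicates 2 and 3, FG normoxia replicates 2 and 3, L3.6pl hypoxia replicate 1 and L3.6pl normoxia replicates 2 and 3 (0.0559 to 0.135).

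CAD, whose protein opens pyrimidine synthesis, had 7.83, 7.18 and 7.92 in L3.6pl hypoxia, against 9.12, 8.87 and 8.82 in L3.6pl normoxia. It fell there by 1.30 on the log2 scale (SE 0.324, adjusted p = 0.0386), with no overlap. The call was lost without L3.6pl hypoxia replicate 1 or 2, any L3.6pl normoxia array, FG hypoxia replicate 2 or FG normoxia replicate 2 or 3 (0.0519 to 0.152). In FG CAD had 8.05, 7.08 and 6.49 in hypoxia, against 8.31, 8.30 and 8.17 in normoxia, again with no overlap. That difference was -1.06 ± 0.324 and was not called (adjusted p = 0.064). The 3 hypoxia arrays of FG were spread over a wider range than its normoxia arrays. The other CAD probe set differed by -0.06 in L3.6pl and 0.09 in FG, so the size of the fall depended on the probe set.

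UMPS, which completes UMP, had 8.57, 8.55 and 9.42 in L3.6pl hypoxia, against 9.24, 9.95 and 10.07 in L3.6pl normoxia. In FG it had 8.02, 7.84 and 8.30 in hypoxia, against 8.21, 9.32 and 9.62 in normoxia. L3.6pl hypoxia replicate 3 and FG normoxia replicate 1 were the arrays that made the groups overlap. The differences of -0.91 ± 0.367 in L3.6pl and -1.0 ± 0.367 in FG were not called (adjusted p = 0.182 and 0.12). They were -1.45 and -1.41 (adjusted p = 0.000626 and 0.000417) without the 3 arrays that stood apart. DHODH, the mitochondrial step between CAD and UMPS, differed by 0.03 in L3.6pl (95% interval -0.49 to 0.54) and by -0.23 in FG (-0.74 to 0.29), and its 3 probe sets ran from -0.62 to 0.03 and from -0.82 to -0.11.

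The dTMP genes had no call in either line. TYMS, which methylates dUMP to dTMP, had 10.24, 9.48 and 9.86 in L3.6pl hypoxia, against 10.03, 10.89 and 10.75 in L3.6pl normoxia. In FG it had 10.62, 9.82 and 9.66 in hypoxia, against 8.49, 10.58 and 10.78 in normoxia. FG normoxia replicate 1 was the lowest of the 12 arrays, below all hypoxia arrays. TK1, which salvages thymidine, had 8.96, 8.45 and 9.19 in L3.6pl hypoxia, against 9.29, 10.29 and 10.15 in L3.6pl normoxia. In FG its levels were 9.61, 9.00 and 9.05 in hypoxia, against 7.92, 9.99 and 9.99 in normoxia. As for TYMS, FG normoxia replicate 1 was the lowest array.

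The differences of TK1 were -1.04 ± 0.501 in L3.6pl and -0.08 ± 0.501 in FG, and without the 3 arrays that stood apart -1.51 and -0.77 (adjusted p = 0.002 and 0.0286). For DTYMK, the kinase that takes dTMP to dTDP, they were -1.16 ± 0.431 and -0.59 ± 0.431, and -1.72 and -1.08 without those arrays (adjusted p = 0.00192 and 0.011). The 5 DTYMK probe sets ran from -1.16 to 0.11 in L3.6pl and from -0.60 to 0.19 in FG. TYMS differed by -0.69 ± 0.531 in L3.6pl and 0.08 ± 0.531 in FG, a sign that became negative without those arrays (-0.96 and -0.65, adjusted p = 0.0665 and 0.173). DUT, which makes dUMP from dUTP, differed by -0.13 (95% interval -0.39 to 0.14) and -0.16 (-0.42 to 0.11) with the probe set used. Of its other 2 probe sets, the near-equally bright one differed by -0.35 and -0.10 and the dimmer one by -1.38 and -0.83, so the size for DUT depended on the probe set. NME1 and CMPK1 are kinases of nucleotides in general. NME1 differed by -0.84 ± 0.401 in L3.6pl and -0.07 ± 0.401 in FG, and CMPK1 by 0.08 and 0.25.

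**Figure D3:**
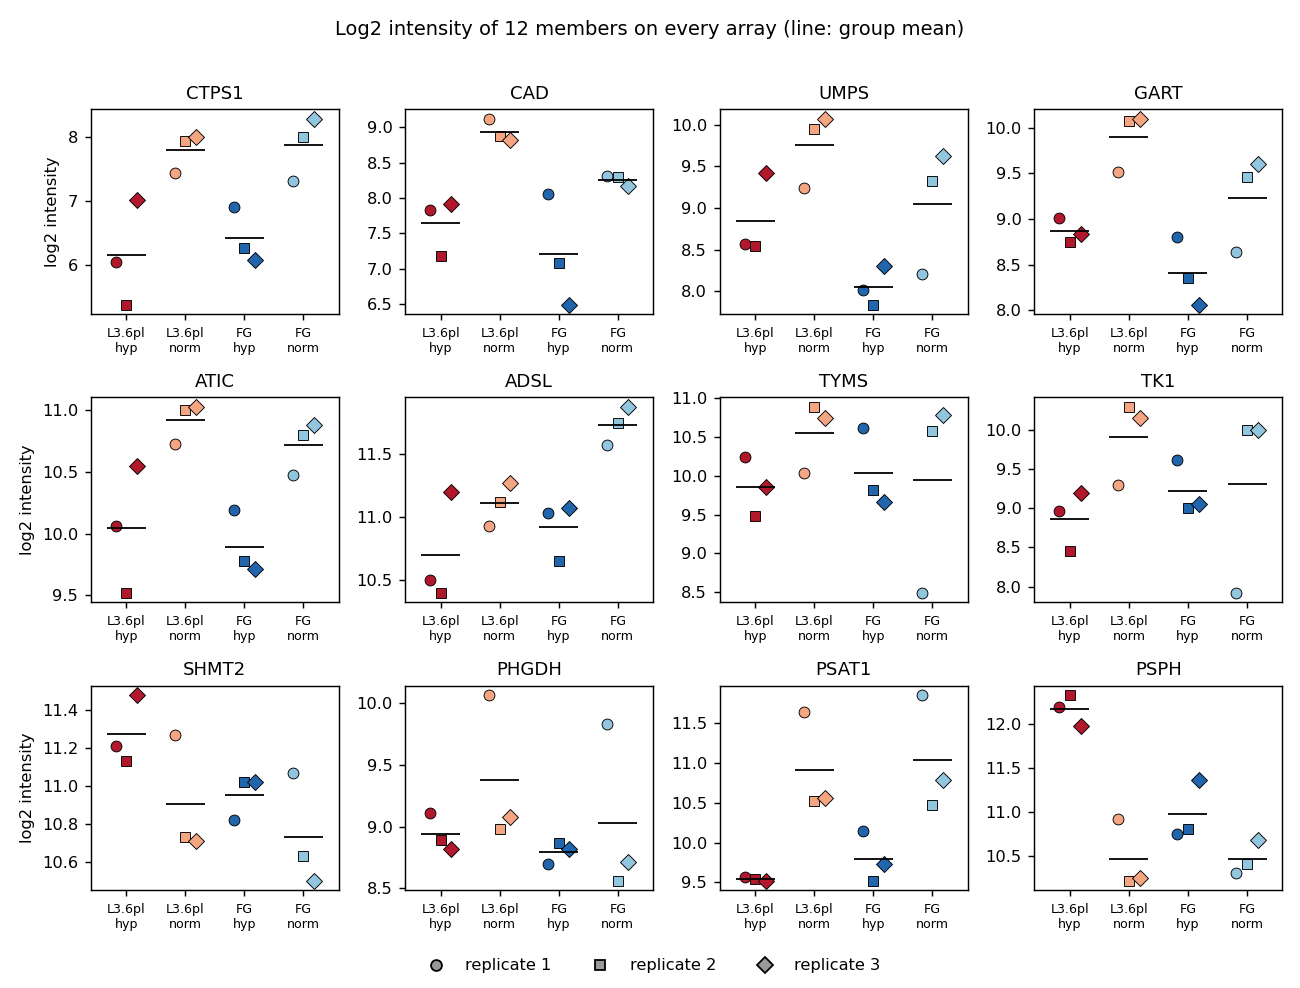
Log2 intensity of 12 members (vertical axes, each panel on its own scale that does not start at 0) on every array of the 4 groups, from left L3.6pl hypoxia, L3.6pl normoxia, FG hypoxia and FG normoxia; symbols mark the replicate number and lines the group means. CTPS1, ATIC and CAD lie lower in hypoxia in each line, and TYMS and TK1 are lowest on FG normoxia replicate 1 (8.49 and 7.92).

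Proliferation markers were low on the same arrays as the dTMP genes. All 24 had a negative difference in L3.6pl, with a median of -1.09, against -0.02 over all genes. Of them 2 (8.33%) were called lower, where 2.97% of all genes were. They were MCM3 (-1.65 ± 0.402, adjusted p = 0.0343) and MCM2 (-1.55 ± 0.41, adjusted p = 0.048), both subunits of the replicative helicase. These calls were lost without any 1 of 6 and 8 of the 12 arrays, with adjusted p up to 0.133 and 0.185. In FG 20 of 24 were negative, with a median of -0.34, against -0.03 over all genes. CCNE1, a cyclin of the G1/S transition, fell there (-1.70 ± 0.448, adjusted p = 0.0353), a call lost without any 1 of 6 arrays (up to 0.132). That was 1 of 24 markers (4.17%), against 6.46% of all genes lower. TOP2A and UBE2C, which act in mitosis, differed by -0.40 and -0.49 in L3.6pl and by 0.44 and 0.37 in FG. Without the 3 arrays that stood apart 21 markers were lower in L3.6pl and 14 in FG, where 13.2% and 12.5% of all genes were. The mean of the 24 was 8.54, 8.07 and 8.88 in L3.6pl hypoxia, against 9.03, 9.92 and 9.91 in L3.6pl normoxia, and it was 9.01, 8.36 and 8.49 in FG hypoxia, against 7.75, 9.66 and 9.81 in FG normoxia. The part of proliferation in the member differences was not tested.

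Of the 5 folate genes 0 were called in L3.6pl by limma, with 1 at an unadjusted p under 0.05, and 1 was higher in FG, where 4.23% of all genes were. The difference between the lines for that gene, MTHFD1L, was -0.59 ± 0.229 and was not called (adjusted p = 0.574, and 0.243 with the replicate block). With array weights, estimated from these same values, it was called (-0.82, adjusted p = 0.0465). MTHFD1L, the mitochondrial enzyme that releases formate, rose in FG, where it had 4.76, 4.26 and 4.15 in hypoxia, against 3.59, 3.52 and 3.77 in normoxia. Hypoxia arrays were above normoxia arrays, and the difference was 0.76 ± 0.162 (adjusted p = 0.0135). It was not called without FG normoxia replicate 2 (0.0546). This probe set lay under the median of every array, which ran from 6.16 to 6.37 over genes, and the other MTHFD1L probe set differed by 0.07. In L3.6pl MTHFD1L had 3.82, 3.97 and 4.16 in hypoxia, against 3.68, 3.98 and 3.81 in normoxia, with overlap and no call (0.16 ± 0.162).

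MTHFD1, the cytosolic enzyme with 3 activities, had 9.90, 8.90 and 9.68 in L3.6pl hypoxia, against 10.36, 10.72 and 10.63 in L3.6pl normoxia. No arrays overlapped, but the difference of -1.08 ± 0.33 was not called (adjusted p = 0.0811). It was called without the 3 arrays that stood apart (-1.28, adjusted p = 0.0278). In FG the difference was -0.47 ± 0.33. The other MTHFD1 probe set, which was dim with a mean of 3.52, differed by 0.11 in L3.6pl and 0.28 in FG. SHMT2, which moves the single-carbon unit from serine to folate in mitochondria, had 11.21, 11.13 and 11.48 in L3.6pl hypoxia, against 11.27, 10.73 and 10.71 in L3.6pl normoxia. In FG it had 10.82, 11.02 and 11.02 in hypoxia, against 11.07, 10.63 and 10.50 in normoxia. In each line normoxia replicate 1 stood above the other 2 normoxia arrays. The differences were 0.37 ± 0.186 and 0.22 ± 0.186, not called, and 0.45 and 0.39 without the 3 arrays (adjusted p = 0.0222 and 0.029). MTHFD2, its mitochondrial partner, differed by -0.00 and 0.12, and by 0.33 and 0.46 without them (adjusted p = 0.125 and 0.029). Its other probe set differed by -0.64 and -0.54.

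Of the 3 serine genes 1 fell and 1 rose in L3.6pl, and 0 of 3 were called in FG by limma, with 2 at an unadjusted p under 0.05. Of all genes 2.97% fell and 3.89% rose in L3.6pl, and 10.7% were called in FG. PHGDH draws a glycolytic intermediate into serine synthesis, PSAT1 transfers the amino group and PSPH releases serine. PSAT1 had 9.57, 9.54 and 9.52 in L3.6pl hypoxia, against 11.64, 10.53 and 10.56 in L3.6pl normoxia. In FG it had 10.15, 9.52 and 9.73 in hypoxia, against 11.86, 10.47 and 10.79 in normoxia. All hypoxia arrays were below all normoxia arrays of the same line, and normoxia replicate 1 was the highest in each. PSAT1 fell in L3.6pl, 2.59-fold (-1.37 ± 0.365, adjusted p = 0.0492), and differed by -1.24 ± 0.365 in FG, which was not called (adjusted p = 0.0553). The call in L3.6pl was lost on leaving out any 1 array except FG normoxia replicates 1 and 2 (0.0597 to 0.141). Without the 3 arrays that stood apart the differences were -1.0 and -0.83, both called (adjusted p = 0.00678 and 0.0109). Its other probe set differed by -1.26 in L3.6pl and -0.82 in FG.

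PHGDH had 9.11, 8.89 and 8.82 in L3.6pl hypoxia, against 10.07, 8.98 and 9.08 in L3.6pl normoxia. In FG it had 8.70, 8.87 and 8.82 in hypoxia, against 9.83, 8.56 and 8.71 in normoxia. Apart from normoxia replicate 1, the normoxia arrays lay near or among the hypoxia arrays. Its differences of -0.44 ± 0.337 and -0.23 ± 0.337 were not called, and without the 3 arrays that stood apart they were -0.03 and 0.16.

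PSPH rose in L3.6pl and was the member with the smallest adjusted p in that comparison. It had 12.19, 12.33 and 11.98 in L3.6pl hypoxia, against 10.92, 10.22 and 10.25 in L3.6pl normoxia. The rise was 1.70 ± 0.215, or 3.25-fold (adjusted p = 0.00156), and held without each array in turn (highest adjusted p 0.0117). In FG PSPH had 10.75, 10.81 and 11.36 in hypoxia, against 10.31, 10.41 and 10.68 in normoxia. The FG arrays did not overlap either, but the difference of 0.51 ± 0.215 was not called (adjusted p = 0.182). The difference between the lines' effects was 1.19 ± 0.305 and was not called (adjusted p = 0.291, and 0.0845 with the replicate block). It was called with array weights (1.46, adjusted p = 0.00963), which were estimated from these same values.

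The PSPH probe sets disagreed. The values above come from the probe set 205048_s_at, and the suffix _s_at marks probe sets whose probes can match several transcripts. The probe set 205194_at had 7.17, 7.20 and 7.66 in L3.6pl hypoxia, against 7.96, 7.41 and 7.56 in L3.6pl normoxia. In FG it had 6.82, 6.66 and 6.88 in hypoxia, against 8.13, 6.95 and 7.49 in normoxia. It was lower in FG hypoxia with no overlap, and overlapped in L3.6pl. Its differences were -0.30 in L3.6pl and -0.74 in FG, and those of 244819_x_at were -0.03 and -0.38. With the mean of the 3 probe sets the rise in L3.6pl was not called (adjusted p = 0.0676). The direction for PSPH in hypoxia depended on the probe set. Among the 23 members with several probe sets, all sets had 1 sign for 14 in L3.6pl and 11 in FG, and not for the other 9 and 12.

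In both lines normoxia replicate 1 was high for PHGDH and PSAT1 and low for 3 of the 4 dTMP genes. Set against the mean of normoxia replicates 2 and 3, it was higher by 1.05 in L3.6pl and 1.19 in FG for PHGDH, and by 1.10 and 1.23 for PSAT1. For MTHFD2 it was 0.67 and 1.00 higher, and for SHMT2 0.55 and 0.51 higher. These are the 4 members more than 0.5 above in both lines, where 4.62% of all genes were. The same array was more than 0.5 below in both lines for 7 members, where 5.18% of all genes were: GART and 6 of 11 pyrimidine genes. Its deviation was -0.79 in L3.6pl and -2.19 in FG for TYMS, -0.93 and -2.07 for TK1, -0.90 and -1.47 for DTYMK, and -0.77 and -1.25 for UMPS. It was -0.57 and -0.89 for GART. The third serine gene, PSPH, deviated by 0.68 in L3.6pl and -0.24 in FG, and the dTMP gene DUT by -0.17 and -0.13.

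Among other lists, those that stood apart most on these arrays were ATF4 targets, genes of serine and glycine transport and use, and proliferation markers. ATF4 is the transcription factor of the amino acid response. Of 13 ATF4 genes, 9 were more than 0.5 above in both lines and 0 below, and of 24 proliferation markers 20 were more than 0.5 below and 0 above. Of the 11 serine and glycine genes 6 were more than 0.5 above in both lines and 0 below. By the same measure, salvage had 4 of 17 genes below and 0 above, and the other folate genes 2 of 11 below and 1 above. The MYC list had 2 of 10 above and 0 below, and the hypoxia targets 1 of 13 above and 0 below. Of all genes 4.62% were above and 5.18% below. The ATF4 list averaged 9.29, 9.65 and 8.96 in L3.6pl hypoxia, against 9.65, 8.73 and 8.76 in L3.6pl normoxia, and 9.45, 9.52 and 9.58 in FG hypoxia, against 10.20, 8.72 and 8.78 in FG normoxia. The plot of list means shows the 2 normoxia replicates 1 apart from the other normoxia arrays, low for proliferation markers and high for ATF4 targets. The labels do not say what replicates of the same number shared.

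**Figure D4:**
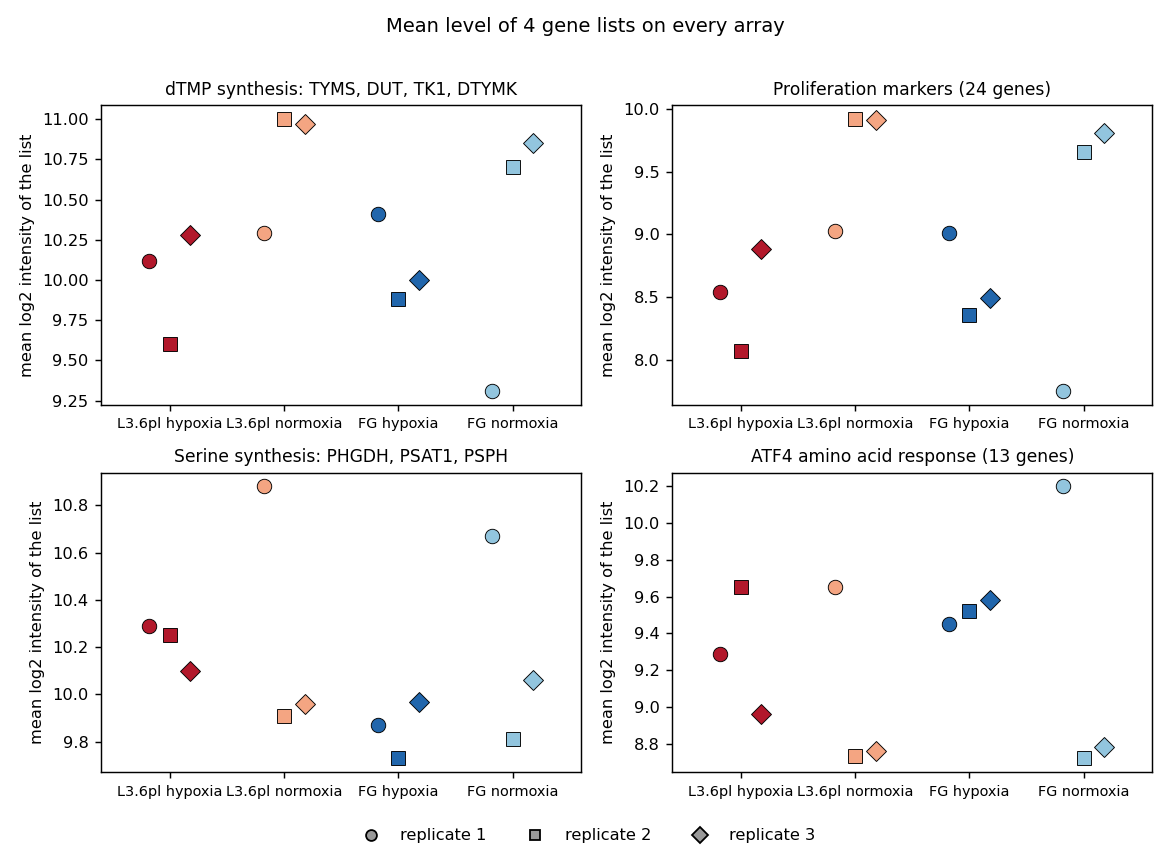
Mean log2 intensity of 4 gene lists (vertical axes, not starting at 0) on every array of the 4 groups, with symbols for the replicate number. Normoxia replicate 1 is the lowest normoxia array for dTMP synthesis and proliferation markers (7.75 in FG for proliferation markers) and the highest for serine synthesis and ATF4 targets (10.20 in FG).

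The line comparisons asked how L3.6pl differed from FG. Under hypoxia 3 of 30 members were called, 1 higher and 2 lower in L3.6pl, while 16.7% of all genes were called, 10% higher and 6.71% lower. L3.6pl arrays lay wholly above FG arrays for 3 members (18.2% of all genes) and wholly below for 3 (13.9%). PSPH was higher by 1.19 ± 0.215 (adjusted p = 0.00341), a call that held without each array in turn, and its 3 probe sets were all positive. PAICS was lower (-0.87 ± 0.231, adjusted p = 0.0253). It had 10.85, 10.72 and 10.08 in L3.6pl hypoxia, against 11.53, 11.47 and 11.25 in FG hypoxia, with no overlap. PPAT had 8.0, 7.64 and 8.16 in L3.6pl hypoxia, against 8.59, 8.47 and 8.47 in FG hypoxia, again with no overlap, and differed by -0.58 ± 0.178 (adjusted p = 0.0496).

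The PAICS call was lost without L3.6pl hypoxia replicate 3 or FG hypoxia replicate 1 or 2 (0.0715 to 0.0867). That of PPAT was lost without any FG hypoxia array, L3.6pl hypoxia replicate 1 or 2, L3.6pl normoxia replicate 2 or FG normoxia replicate 2 (0.067 to 0.166). Neither was called with the mean of its 3 probe sets (adjusted p = 0.299 and 0.303), while DHODH, at 0.45, and MTHFD1, at -0.57, were called with theirs (adjusted p = 0.0362 and 0.0167). The other bright PAICS probe set differed by -0.14. The count of 3 was 1 without FG hypoxia replicate 2. It was 2 without FG hypoxia replicate 3, any L3.6pl hypoxia array, FG normoxia replicate 2 or L3.6pl normoxia replicate 2, and it was 5, 2 higher and 3 lower, without the 3 arrays that stood apart (22.3% of all genes, 11.7% higher and 10.6% lower).

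Under normoxia 0 of 30 members were called by limma, with 3 at an unadjusted p under 0.05, while 10.7% of all genes were called, 5.16% higher and 5.54% lower. The arrays did not overlap for 2 members higher in L3.6pl (15% of all genes) and 1 lower (13.1%). The widest of the 95% intervals was that of TYMS, -0.57 to 1.78, and for PSPH the difference was -0.00 (-0.48 to 0.47). ADSL differed by -0.62 ± 0.202 (adjusted p = 0.0835), and 1 member was called without L3.6pl hypoxia replicate 3. ADSL and PAICS were called, both lower, when the 3 arrays that stood apart were left out (adjusted p = 0.0296 and 0.0339), and 13.1% of all genes were called, 6.63% higher and 6.42% lower.

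Same-numbered arrays of the 2 lines deviated together within an oxygen condition, and with that replicate number as a block more members were called. Under hypoxia there were 11, while 30% of all genes were called, 17.9% higher and 12.1% lower: PPAT, PAICS, NME1 and MTHFD1 were lower in L3.6pl, and GART, IMPDH2, GMPS, DHODH, UMPS, SHMT2 and PSPH were higher. Under normoxia there were 6, while 23.1% of all genes were called, 12.2% higher and 10.9% lower: ADSL was lower and GART, GMPS, UMPS, DTYMK and PHGDH were higher. By the probe sets used and with this block, GART, GMPS and UMPS were called higher in L3.6pl under both conditions. Their differences under hypoxia were 0.46, 0.50 and 0.79 (blocked adjusted p = 0.0252, 0.0345 and 0.00331). Under normoxia they were 0.66, 0.56 and 0.70 (blocked adjusted p = 0.00662, 0.028 and 0.00815). This block was added after the data were seen, and without it these genes were not called in either condition. With the same block taken as random, GART was not called under hypoxia, nor UMPS under normoxia. All 4 UMPS probe sets were positive in both comparisons. For GMPS the direction depended on the probe set, since its other 2 differed by -0.39 and -0.15 under hypoxia. For GART 7 of 9 probe sets were positive under hypoxia, where the third brightest differed by -0.60, and 9 of 9 under normoxia. The share of members called, with or without the block, was near or below that of all genes.

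**Figure D5:**
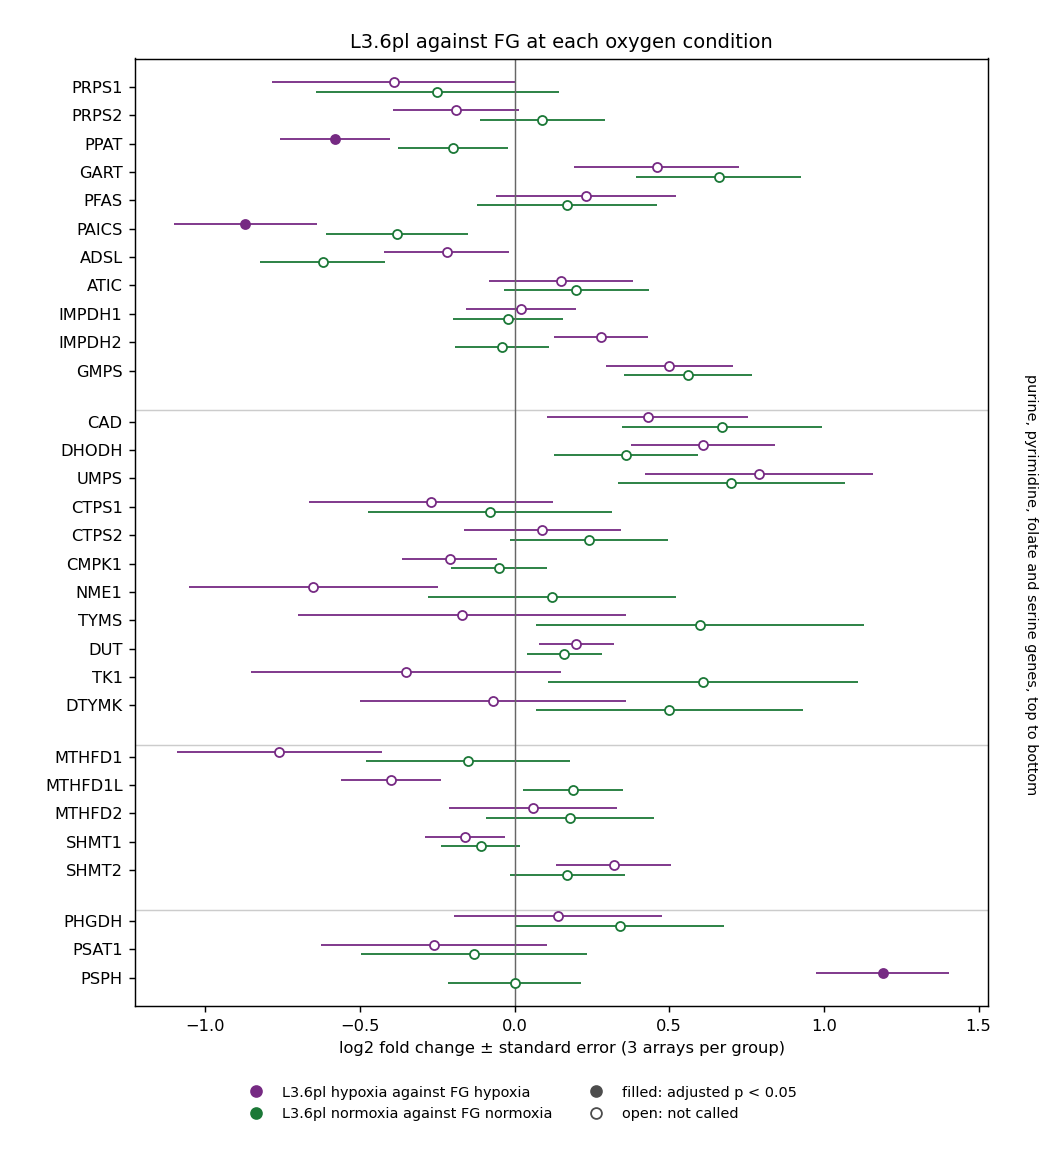
Log2 fold change of each member, L3.6pl over FG, with its standard error without the replicate block (horizontal axis), under hypoxia (purple, above) and normoxia (green, below), 3 arrays per group; filled points were called. PSPH is filled at 1.19 and PAICS and PPAT at -0.87 and -0.58 under hypoxia, and no point is filled under normoxia.

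Enzymes that occur as 2 closely related forms were set side by side. CTPS1 fell in both lines, and CTPS2 differed by 0.02 (95% interval -0.54 to 0.58) in L3.6pl and by 0.17 (-0.40 to 0.73) in FG. The other CTPS2 probe set had 5.82, 6.28 and 6.88 in L3.6pl hypoxia, against 7.50, 7.32 and 7.04 in L3.6pl normoxia, and 6.34, 6.77 and 7.11 in FG hypoxia, against 7.86, 7.73 and 7.76 in FG normoxia. It was lower in hypoxia with no overlap in either line (-0.96 and -1.04), so the 2 probe sets of CTPS2 disagreed. PRPS1 and PRPS2 were both negative with the probe sets used, at -0.92 and -0.48 in L3.6pl and -0.78 and -0.20 in FG. The other PRPS2 probe set differed by -0.13 in L3.6pl and 0.19 in FG. SHMT1, the cytosolic form, differed by -0.27 and -0.22 and was dim, with a mean under the array medians, while SHMT2 differed by 0.37 and 0.22. MTHFD1 and MTHFD1L differed by -1.08 and 0.16 in L3.6pl and by -0.47 and 0.76 in FG. The differences between forms were not tested.

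Genes of nucleotide salvage and ribonucleotide reduction, 17 measured, had 1 higher and 1 lower in L3.6pl hypoxia and 2 higher and 1 lower in FG hypoxia. Of all genes 3.89% were higher and 2.97% lower in L3.6pl, and 4.23% and 6.46% in FG. SAMHD1, which breaks down deoxynucleotides, fell in L3.6pl (-1.68 ± 0.197, adjusted p = 0.00108) and in FG (-1.05 ± 0.197, adjusted p = 0.00733), and held without each array in turn. UPP1, uridine phosphorylase, rose in FG (1.24 ± 0.231, adjusted p = 0.00716), as did the guanylate kinase GUK1 (0.70 ± 0.138, adjusted p = 0.00949). UCKL1, related to uridine kinases, rose in L3.6pl by 0.47 ± 0.118 (adjusted p = 0.0381), a call lost without any 1 of 8 of the 12 arrays (up to 0.135). HPRT1, the salvage enzyme of hypoxanthine and guanine, differed by 0.04 and 0.30. RRM2, the regulated subunit of ribonucleotide reductase, differed by -0.98 ± 0.613 and 0.02 ± 0.613. Leaving out the 3 arrays that stood apart, 8 genes were lower and 1 higher in L3.6pl, and 5 lower and 3 higher in FG. In that fit 13.2% of all genes were lower and 7.89% higher in L3.6pl, and 12.5% and 7.06% in FG.

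Between the lines 4 salvage genes were higher and 1 lower in L3.6pl under hypoxia, and 2 higher and 2 lower under normoxia. The shares of all genes were 10% and 6.71% under hypoxia and 5.16% and 5.54% under normoxia. With the replicate block the salvage counts were 5 and 3 under hypoxia and 8 and 2 under normoxia. The shares of all genes were then 17.9% and 12.1%, and 12.2% and 10.9%. GUK1 was lower in L3.6pl, with differences of -1.36 ± 0.138 under hypoxia and -1.08 ± 0.138 under normoxia (adjusted p = 9.77e-05 and 0.000585). The mitochondrial thymidine kinase TK2 was higher by 1.54 ± 0.202 and 0.78 ± 0.202 (adjusted p = 0.00048 and 0.0309), of which the normoxia call was lost without FG normoxia replicate 2 or 3 or L3.6pl normoxia replicate 1 or 2 (up to 0.113). The uridine and cytidine kinase UCK1 was higher by 0.61 and 0.65 (adjusted p = 0.00104 and 0.00111), and UCKL1 was higher by 0.56 under hypoxia (adjusted p = 0.00831). RRM2B, a p53-induced form of the reductase subunit, was lower under normoxia (-1.22 ± 0.325, adjusted p = 0.0368), a call lost without any 1 of 7 arrays (up to 0.126).

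Of 11 other folate genes, 0 were called in hypoxia by limma in either line, with 3 at an unadjusted p under 0.05 in L3.6pl and 5 in FG. Calls over all genes came to 6.86% in L3.6pl and 10.7% in FG. GGH, which shortens folate chains, differed by -0.36 and -0.26, and MTRR, which reactivates methionine synthase, by -0.72 ± 0.207 and -0.71 ± 0.207 (adjusted p = 0.0657 and 0.0514). In each line 4 were lower without the 3 arrays that stood apart, where 13.2% of all genes were in L3.6pl and 12.5% in FG. SLC25A32, the mitochondrial folate carrier, was lower in L3.6pl than in FG, with differences of -1.89 ± 0.278 under hypoxia and -2.12 ± 0.278 under normoxia (adjusted p = 0.000967 and 0.00072), and held without each array in turn. FPGS, which lengthens folate chains, was higher under hypoxia by 0.45 ± 0.139 (adjusted p = 0.0479), a call lost without any 1 of 9 arrays (up to 0.148). The blocked counts were 2 higher and 2 lower under hypoxia and 0 and 3 under normoxia. The blocked shares of all genes were 17.9% and 12.1%, and 12.2% and 10.9%.

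Of 11 genes of serine and glycine transport and use, 1 was lower in each line in hypoxia, where 2.97% of all genes were in L3.6pl and 6.46% in FG. The gene was GCSH, a subunit of the glycine cleavage system (-0.85 ± 0.213 in L3.6pl and -0.78 ± 0.213 in FG, adjusted p = 0.0401 and 0.0414). Both calls were lost without any 1 of 9 arrays (up to 0.133 and 0.152). The amino acid carriers SLC38A2 and SLC1A5 differed by 0.61 and -0.33 in L3.6pl and by -0.70 and -0.73 in FG, not called. CBS, which joins serine to homocysteine, was higher in L3.6pl than in FG by 1.97 ± 0.408 under hypoxia and 1.70 ± 0.408 under normoxia (adjusted p = 0.00722 and 0.0225). The normoxia call was lost without FG normoxia replicate 2 or 3 or L3.6pl normoxia replicate 1 or 3 (up to 0.0859). GCAT, of threonine and glycine breakdown, was higher by 0.75 and 0.72 (adjusted p = 0.00147 and 0.00278). SLC38A2 was higher under hypoxia, by 1.37 ± 0.325 (adjusted p = 0.0151, lost without FG hypoxia replicate 2 or L3.6pl hypoxia replicate 2, up to 0.0631).

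In the ATF4 list 1 of 13 genes was higher in L3.6pl hypoxia, and 2 were higher and 1 lower in FG hypoxia. Of all genes 3.89% were higher in L3.6pl, and 4.23% were higher and 6.46% lower in FG. VLDLR, a lipoprotein receptor that is also a hypoxia target, rose in L3.6pl (2.06 ± 0.326, adjusted p = 0.00457) and in FG (1.84 ± 0.326, adjusted p = 0.00541). SLC3A2, the heavy chain of amino acid exchangers, rose in FG (0.75 ± 0.166, adjusted p = 0.0167, lost without FG hypoxia replicate 2 at 0.0721). ATF5 fell in FG (-0.71 ± 0.192, adjusted p = 0.0393), a call lost without any 1 of 9 arrays (up to 0.146). ATF4 itself and CEBPB differed by 0.54 and 0.20 in L3.6pl and by 0.63 and 0.54 in FG, not called. Leaving out the 3 arrays that stood apart, 6 were higher and 1 lower in L3.6pl, and 8 higher and 1 lower in FG. In that fit 7.89% of all genes were higher and 13.2% lower in L3.6pl, and 7.06% and 12.5% in FG. No relation between this list and the members was tested. Between the lines, SLC3A2 was lower in L3.6pl under hypoxia (-0.87 ± 0.166, adjusted p = 0.0046), the 1 call of this list there.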

How the data were processed

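RNA extracted with Trizol was amplified, labelled with biotin and hybridised to 12 Affymetrix arrays, 3 per group, per the labels' protocols. Deposited intensities are on a linear scale, and the submitters' processing notes name RMA without a version. They were turned into log2 with no further normalization, since array medians ran from 39.1 to 41.4. Of 54675 probe sets, 41091 had exactly 1 gene in the platform annotation, 1801 several and 11721 none, leaving aside 62 controls. Each of 19777 genes was read from its brightest probe set by mean log2, and 10523 genes had more than 1. Probes of related genes may cross-hybridise.

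Group means were estimated with lmFit and eBayes of limma 3.58.1 (R 4.3.3), leaving 8 residual degrees of freedom. The number of arrays limits the precision. Alternatives were cyclic loess, median centring, averaging all probe sets of a gene, leaving out dim genes, trend and robust moderation, array weights, fits of 2 groups, replicate blocks, leaving out arrays, and an adjusted p below 0.01. The blocks within each oxygen condition were added after the data were seen.

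Same-numbered arrays of the 2 lines deviated together (correlations of deviations 0.735, 0.528 and 0.675 in normoxia, and 0.358, 0.444 and 0.462 in hypoxia), which is a pairing from the data and not from the labels. It was used for the line comparisons and the interaction.

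Members and gene lists were chosen with earlier results of these data known. Members are described in full. From each other list, the called genes lowest in adjusted p (at most 4) and the brightest uncalled genes (at most 2) were named per comparison. Promoter stretches came from RefSeq, 1 start per gene.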

Additional observations from a re-analysis of the deposited data

How the results depend on the processing

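Member calls in hypoxia sat near the threshold. Array weights gave 19 called members in L3.6pl, 13 in FG, 9 between the lines under normoxia and 2 for the interaction (PSPH and MTHFD1L), with 5193, 5731, 6624 and 421 of all genes. Without the 3 arrays that stood apart the counts were 16 in L3.6pl, 12 in FG, 5 between the lines under hypoxia and 2 under normoxia, with 4179 of all genes in L3.6pl, 3871 in FG and 19 for the interaction. A fit of the 2 groups' arrays alone gave 3 members and 797 genes in L3.6pl and 2 members between the lines under normoxia. At an adjusted p below 0.01 there was 1 member in L3.6pl (475 genes), 0 in FG (860) and 1 between the lines under hypoxia (1718), with 1025 genes between the lines under normoxia and 2 for the interaction. Replicate number as a block over all groups gave 8 members (2130 genes) in L3.6pl, 7 members in FG, 1 between the lines under normoxia and 13 genes for the interaction. Deviations of same-numbered hypoxia and normoxia arrays correlated at -0.04, -0.0373 and 0.413 in L3.6pl, and -0.217, -0.129 and 0.259 in FG. Only those of replicate 3 were positive. The replicate block within each oxygen condition gave 11 members (5935 genes) between the lines under hypoxia, 6 (4576) under normoxia and 703 genes for the interaction. As a random block it gave 7 (5721), 3 (4174) and 366. Cyclic loess and median centring each gave 1 member between the lines under normoxia. The interaction had 11 genes after median centring, 10 with the dim filter, 13 with the mean of all probe sets and 10 with trend and robust moderation. Leaving out each array in turn gave 1 to 9 members and 508 to 2436 genes in L3.6pl, 1 to 7 and 1029 to 2899 in FG, 1 to 3 and 2142 to 3813 between the lines under hypoxia, 0 to 1 and 1254 to 2626 under normoxia, and 0 members and 2 to 23 genes for the interaction. The cause of these shifts was not tested.

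Among all calls, 39.5% were higher in FG hypoxia, against 50.1% after cyclic loess and 51% after median centring. For the interaction the shares were 60%, 50% and 45.5%. Single calls were also lost for ATIC with trend and robust moderation (adjusted p = 0.053 in L3.6pl and 0.0514 in FG), with the random block (0.0589 and 0.0573), with median centring in FG (0.0537) and with 2 groups alone in L3.6pl (0.114). They were lost for GART with median centring (0.0553), for CAD with the mean of all probe sets (0.0502), for CTPS1 with 2 groups alone in L3.6pl (0.0754) and with the random block in FG (0.0505). The same held for PSAT1 with cyclic loess (0.0714) and 2 groups alone (0.0532), and for PPAT with trend and robust moderation (0.0671). No called member changed sign under any alternative run. MTHFD1L and SHMT1 were dim, so their differences are least certain.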

Other observations

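The MYC family and its partners, which include activators and repressors that bind CACGTG, had 2 of 10 measured genes higher and 0 lower in L3.6pl hypoxia, and 2 higher and 2 lower in FG hypoxia. Of all genes 3.89% were higher and 2.97% lower in L3.6pl, and 4.23% and 6.46% in FG. MXI1, which competes with MYC for MAX, rose by 2.16 ± 0.259 in L3.6pl (adjusted p = 0.00122) and by 2.07 ± 0.259 in FG (adjusted p = 0.000913). MXD1, another competitor, rose by 1.49 ± 0.211 in L3.6pl (adjusted p = 0.00265) and by 1.27 ± 0.211 in FG (adjusted p = 0.004). The MXD1 call in FG was lost with the mean of all probe sets. MYC itself differed by 0.08 ± 0.255 in L3.6pl and by -0.22 ± 0.255 in FG, and was not called, and its partner relative MLX differed by 0.08 and 0.03. MYCN fell in FG hypoxia (-1.76 ± 0.286, adjusted p = 0.00361), as did MAX (-1.11 ± 0.251, adjusted p = 0.0177). The MAX call was lost without FG hypoxia replicate 1 or 2 (up to 0.0625), and both were lost with the mean of all probe sets. Between the lines MYCN was lower in L3.6pl, with differences of -1.51 ± 0.286 under hypoxia and -3.18 ± 0.286 under normoxia (adjusted p = 0.00442 and 5.62e-05), of which the hypoxia call was lost with the mean of all probe sets. MXD1 was higher in L3.6pl by 1.49 ± 0.211 and 1.27 ± 0.211 (adjusted p = 0.000768 and 0.00306). With the replicate block 5 genes were higher and 1 lower under hypoxia, and 2 higher and 1 lower under normoxia. The blocked shares of all genes were 17.9% and 12.1%, and 12.2% and 10.9%. No relation between these genes and the members was tested.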
